A study of Mus musculus with 2 samples.

Results

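The RNA recovered with an Ago2 antibody from scramble-transfected TM4 cells was described from 1 library, the baseline of an experiment that also holds 1 library from cells given a miR-471-5p mimic (1 of 2 samples). The TM4 cells, an established mouse Sertoli cell line grown in DMEM with serum, were transfected with a scramble oligonucleotide and taken 48 h later for RNA immunoprecipitation, and the recovered RNA was made into an Illumina TruSeq library. All 22609 gene rows of the table were used, and the 300 rows with the most reads (1.33% of rows) were described in more detail. The group has no replicate, so no value has a replicate check, and p-values were not computed. The labels do not say how RNA was selected for the library. No library of RNA before the pull-down or from a control antibody was analysed here, so abundance in the cell and association with Ago2 cannot be told apart for any gene.

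Ago2 is the protein that holds a mature microRNA (miRNA) and uses it as a guide. The miRNA pairs through its seed, the bases near its 5′ end, with sites that lie mostly in the 3′ untranslated region (3′UTR) of an mRNA, and proteins of the TNRC6 family that bind Ago2 then lower the translation and stability of that mRNA. Sertoli cells are the supporting cells of the seminiferous tubule. They nurse the germ cells, form the blood-testis barrier, build part of the basement membrane of the tubule and engulf dying germ cells.

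Mature miRNAs were not measured, but the sites they can pair with are written in the 3′UTRs of the recovered mRNAs. The guides below are 1 member of each of 8 miRNA families that are widely expressed in mammalian cells, and they are shown because their seeds were searched in the 3′UTRs of the profile. The sequences are from RefSeq (GRCm38.p6), written 5′ to 3′, and the capitals mark bases 2 to 8, the seed.
let-7a-5p: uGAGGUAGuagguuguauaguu
miR-16-5p: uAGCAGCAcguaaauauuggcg
miR-17-5p: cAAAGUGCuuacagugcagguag
miR-21a-5p: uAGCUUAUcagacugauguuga
miR-26a-5p: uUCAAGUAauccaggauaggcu
miR-29a-3p: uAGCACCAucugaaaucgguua
miR-30a-5p: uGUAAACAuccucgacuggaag
miR-125b-5p: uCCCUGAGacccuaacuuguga

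The library held 18717225 reads on genes, which made 55.9% of all entries of its table. Reads that aligned to several places had a row of their own with 35.6% of entries. Another 7.89% lay on no counted feature, and 0.585% overlapped more than 1 gene. The settings of the count are not given, so reads in introns may be among the 7.89%. Whether a read aligned to several places has 1 entry in its row or several is also not given. Levels are given as CPM, counts scaled to a total of 1000000 gene reads, where 1 read equals 0.0534 CPM and 3 reads, taken as the floor, equal 0.16 CPM. Levels of different genes are compared as RPKM, which is CPM per kilobase of the longest annotated transcript. Intervals in brackets are exact 95% intervals and cover counting error only. Reads were found on 15134 genes, and 11551 genes (51.1% of rows) stood at 1 CPM or more. The median gene among these had 37 CPM and the middle range ran from 12.4 to 94.2 CPM. A level of 10 CPM or more was reached by 9094 genes (40.2% of rows), 100 CPM by 2729 and 1000 CPM by 53. Counts of list members at 1 CPM, at 10 CPM and in the top 300 are to be read beside the 51.1%, 40.2% and 1.33% of all rows that were there.

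No single gene dominated the library. Eef2, which encodes the elongation factor that moves the ribosome along the mRNA, had the most reads and took 0.834% of them (0.83% to 0.838%). The top 10 genes took 5% (4.99% to 5.01%), the top 100 took 15.7%, and the top 300 took 26.7%. It took 1141 genes to reach 50% of the reads, which was 9.88% of the genes at 1 CPM or more, and 5401 genes to reach 90%. At the other end, 1595 genes had only 1 or 2 reads, and together they held 0.0115% of the reads.

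**Figure D1:**
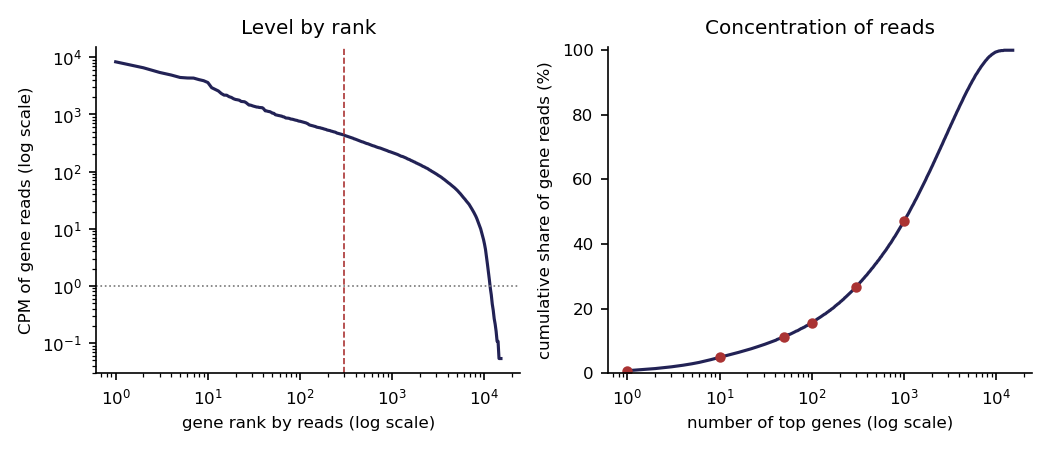
The left panel plots the level of each gene (CPM, log scale) against its rank by reads (log scale), with a dashed line at rank 300 and a dotted line at 1 CPM. The right panel plots the cumulative share of gene reads (%) against the number of top genes, with points at 1, 10, 50, 100, 300 and 1000 genes, where the last holds 47.1% of the reads.

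The highest ranks joined translation, cytoskeleton, chaperone and matrix genes. Eef2 had 156128 reads (8341 CPM) and Eef1a1, which brings aminoacyl-tRNA to the ribosome, had 122833 (6563 CPM). Acta2, the smooth muscle actin, followed with 101778 reads (5438 CPM) and Hsp90ab1, a cytosolic chaperone, with 91783 (4904 CPM). The intermediate filament gene Vim stood at 4443 CPM. Of the matrix genes, Col1a2 had 4350 CPM and Sparc 4334 CPM. The intervals of these 2 genes, 4320 to 4380 and 4304 to 4364 CPM, overlapped, so their order was not resolved at this depth. Cxcl12, a chemokine that retains stem and immune cells, stood at 4076 CPM, the giant scaffold gene Ahnak at 3898 CPM and Actb at 3624 CPM. Places 11 to 20 included Hdlbp, Eif4b, Fstl1, Bgn, Tcp1, Fgf7, Col1a1, Fth1 and Nedd4, which ran from 2944 down to 1829 CPM. Among them were 2 secreted signalling proteins, the growth factor Fgf7 (2047 CPM) and the follistatin relative Fstl1 (2579 CPM).

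Ranking by reads favours long transcripts, and the order changed once length was taken into account. Eef1a1 then led with 3658 RPKM, and Eef2 (2700 RPKM), Acta2 (2672 RPKM) and Vim (2026 RPKM) were in places 3 to 5. Hsp90ab1 (1946 RPKM), Actb (1887 RPKM) and Sparc (1884 RPKM) came next. The short genes Rpl8, a ribosomal protein, and S100a4, a calcium-binding protein of motile mesenchymal cells, closed the first 10 with 1634 and 1621 RPKM. Ahnak fell to place 148 with 215 RPKM. Of the top 300 by reads, 188 were also among the top 300 per kilobase. The boundary of the top 300 was not sharp. Ap2a2 and Rarg, the last 2 inside it, had 8195 and 8170 reads, while Ywhaz and Ddx17 just outside had 8168 and 8155.

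The top 300 were nearly all protein-coding. RefSeq gave that class to 295 of them, and the other 5 had no class matched. Over the genes at 1 CPM or more, protein-coding genes held 98.3% of the reads and long non-coding genes (lncRNA) 0.246%. The longest transcript of the top 300 had a median of 3873 bases against 3192 for the other genes at 1 CPM or more, and their 3′UTR a median of 1423 against 1224 bases. GC content was close, with medians of 48.9% and 50.1%. Across 11445 genes, length and CPM had a Spearman rho of 0.24, and length and RPKM one of -0.172. These are descriptions across genes of 1 library, and both scales contain the counts of the same reads.

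The top 300 were spread unevenly over the chromosomes of the annotation (GRCm38). Of the 802 gene rows on chromosome 15, 31 were among the top 300 (3.87%), and of the 715 on chromosome 19, 21 were (2.94%). Of the 716 rows on chromosome 12 only 1 was, Actn1, and of the 764 on chromosome 14 there were 4. The genes at 1 CPM or more had a median of 50.3 CPM on chromosome 15 and 57.2 CPM on chromosome 19, and of 29.8 CPM on chromosome 12 and 30.4 CPM on chromosome 14. The medians did not follow the shares in order. The lowest, 27.9 CPM, was on chromosome 7, where 17 of 2028 rows were among the top 300 (0.838%). The numbers of copies of these chromosomes in the cells were not measured.

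The recovered RNA was read against lists of lineage markers. The study states that its Sertoli cell lines were authenticated with antibodies to Sox9 and Amh. Those detect protein, which the read counts do not measure. Of the 25 Sertoli markers with a row, 11 stood at 1 CPM or more, a share no higher than the 51.1% of all rows. The lists together held 0.111% of the reads, most of them on 1 gene. That gene was Kitl, the ligand that Sertoli cells present to the Kit receptor of germ cells, with 16163 reads (864 CPM, 850 to 877) and rank 72. For all markers, fewer cells that express a gene, less of its RNA per cell and less of that RNA bound to Ago2 cannot be told apart.

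Among the transcription factors of the Sertoli lineage, Sox9 had 1070 reads (57.2 CPM), Gata4 365 (19.5 CPM) and Wt1 35 (1.87 CPM). Nr5a1 and Nr0b1, which act in the gonad and adrenal, had 4 and 3 reads. Sox8 and Dmrt1 had 2 reads and 1 read, below the floor. The factors thus covered the range from the middle of the detected genes to the floor. Fshr, the receptor through which the hormone FSH acts on Sertoli cells, had 0 reads, below the floor of 0.16 CPM. Rhox5, an androgen-regulated Sertoli gene, was not analysed here.

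The secreted and junctional markers were mixed as well. Inhbb and Inha, the subunits of inhibin B, had 380 reads (20.3 CPM) and 80 reads (4.27 CPM). Clu had 8.71 CPM, and Gdnf, the niche factor of spermatogonial stem cells, had 4.11 CPM. Amh, the hormone of the fetal Sertoli cell, had 5 reads. The classical Sertoli products Trf (transferrin), Dhh, Cst12 and Ptgds had 0 reads, and Trf shared 79.8% of its 50-base windows with another annotated gene, a property described below. At the cell contacts, the scaffold gene Tjp1 had 88.2 CPM, the gap junction gene Gja1 26.2 CPM and the cadherin gene Cdh2 18.8 CPM. The tight junction genes Ocln and Cldn11, which belong to the blood-testis barrier, had 10 reads and 1 read.

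The mesenchymal list stood highest of the lineage lists. It held 0.777% of the reads, 9 of its 12 members were at 1 CPM or more, beside 51.1% of all rows, and 4 were among the top 300, beside 1.33%. Beside Vim these were the homeobox gene Prrx1 (892 CPM), S100a4 (807 CPM) and the receptor gene Pdgfra (550 CPM). Postn, Thy1 and Pdgfrb followed with 408, 371 and 195 CPM. In contrast, Lum and Fap had 2 reads each and Tcf21 had 1 read. S100a4 shared 56.3% of its windows with another gene. Vim alone had 83153 of the 145523 reads of the list, and Vim is also on the cytoskeleton list.

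The myoid and smooth muscle list was divided in the same way. Acta2, Tagln (362 CPM), Smtn (89.1 CPM), Actg2 (52.8 CPM) and Lmod1 (22.2 CPM) were at 10 CPM or more. Cnn1, Des and Myh11 of the same list had 17, 7 and 6 reads. Acta2 alone had 101778 of the 111657 reads of the list.

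Markers of other cells of the testis were low. The Leydig list held 89 reads over 8 genes, of which Star, the cholesterol carrier of steroid synthesis, had 69, while Lhcgr, Hsd3b1 and Hsd17b3 had 0. The germ cell list held 218 reads over 13 genes, led by Ddx4 (74 reads), Piwil1 (56) and Sycp3 (48), and Stra8, Pou5f1 and Nanos3 had 0. The macrophage list held 40 reads over 8 genes, with Ptprc, Adgre1, Itgam and Cx3cr1 at 0. The endothelial list held 68 reads over 8 genes, of which Tek had 51. Of these 4 lists, 1 Leydig, 3 germ cell, 1 macrophage and 1 endothelial gene stood at 1 CPM or more, and no member reached 10 CPM. On the epithelial list, Krt19 had 51.2 CPM and Krt7 10.3 CPM, while Krt8 and Krt18, the keratin pair of simple epithelia, had 0 reads.

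**Figure D2:**
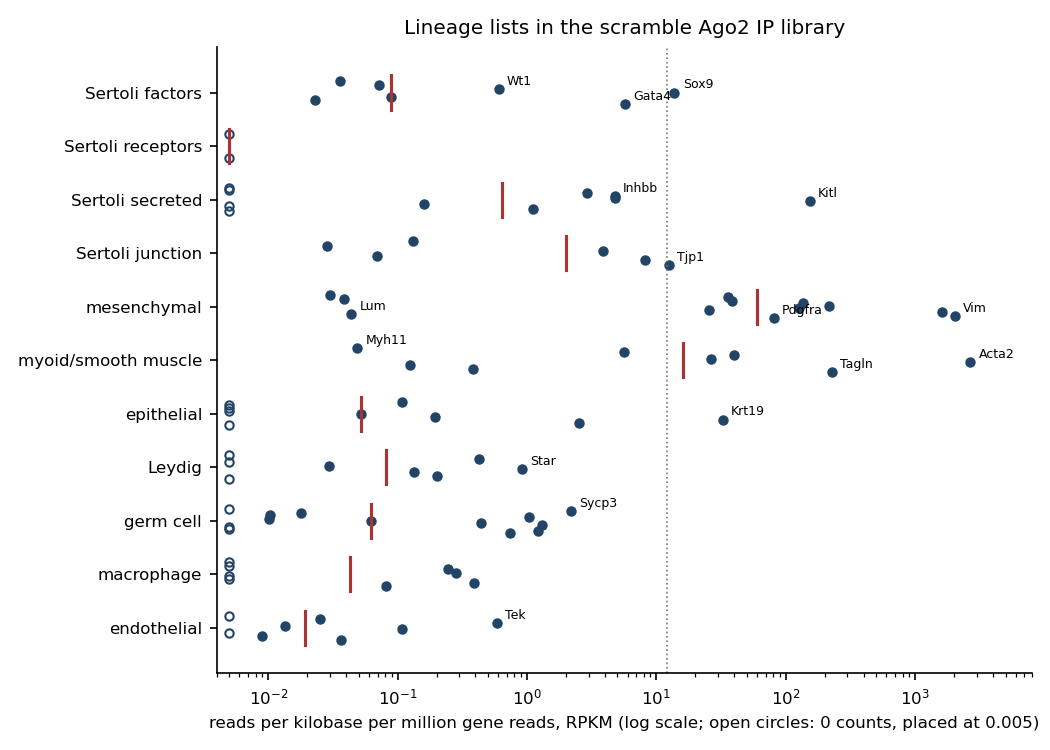
Each filled point is a gene of a lineage list, at its RPKM (log scale), open circles are genes with 0 counts placed at 0.005, red bars are list medians, and the dotted line is the median of all genes at 1 CPM or more (12 RPKM). The mesenchymal and myoid medians, 59.5 and 16 RPKM, lie to the right of that line and all other medians to its left.

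The genes of the extracellular matrix were a large class of the profile. The 84 genes of the 5 matrix lists held 2.78% of the reads, and 72 of them were at 1 CPM or more. Of these, 15 were among the top 300, a share to be read beside the 1.33% of all rows.

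The fibrillar collagens build the fibres of connective tissue. Col1a2 and Col1a1, the chains of type I collagen, stood at 4350 and 1987 CPM, or 813 and 335 RPKM. Col3a1 had 938 CPM, Col5a2 509 CPM and Col5a1 439 CPM, so that the chains of types I, III and V made up the 5 members in the top 300. The other 6 were far lower. Col27a1 had 81.3 CPM and Col5a3 12.2 CPM, and the cartilage collagens Col2a1, Col11a1 and Col11a2 had 8, 64 and 23 reads. Col24a1 had 4.

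The basement membrane list, the matrix to which Sertoli cells attach, was lower and had no member in the top 300. Nid1, which links laminin to collagen IV, led with 305 CPM, and Col4a1, Lamb1, Lama4 and Hspg2 stood between 207 and 223 CPM. The paired chains Col4a1 and Col4a2 had 33.7 and 13.3 RPKM. Of the laminin alpha chains, Lama4 had 208 CPM and Lama5 10.7 CPM, whereas Lama2 had 28 reads, Lama1 had 2 and Lama3 had 0. Lamb1 and Lamc1, at 215 and 94.7 CPM, were the leading beta and gamma chains. The collagen IV chains Col4a3 and Col4a4 had 1 read each. In reads per kilobase the median of the list was 2.72 RPKM, against 12 RPKM over the genes at 1 CPM or more.

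The matrix glycoproteins held the most reads of the 5 lists, 1.11%. Sparc, which binds collagen, had 1884 RPKM and the small proteoglycan Bgn 962 RPKM. Vcan (909 CPM), Thbs1 (658 CPM) and Fn1 (595 CPM) were also among the top 300, and Fbln2 came next with 409 CPM. The 4 lowest were Fbn2 (30.6 CPM), Ccn2 (23.6 CPM), Eln (1.55 CPM) and Lum, of which Eln encodes the core of elastic fibres.

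The enzymes that fold, process and cross-link collagen were all present. Each of the 17 members of this list stood at 10 CPM or more, from Lox, the cross-linking oxidase, at 1676 CPM down to P4ha3 at 16.5 CPM. The procollagen processing enhancer Pcolce had 906 CPM, the collagen chaperone Serpinh1 733 CPM, and P4hb, a subunit of prolyl hydroxylase, 850 CPM. Of the genes of matrix turnover, the protease inhibitors Timp3 and Timp2 (575 and 252 CPM) stood above the proteases Mmp14 and Mmp2 (127 and 117 CPM), and per kilobase the order was 122 and 67.9 against 39.1 and 37.9 RPKM. Mmp13, Mmp3 and Mmp9 stood between 1.98 and 4.11 CPM. Timp4 had 0 reads.

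**Figure D3:**
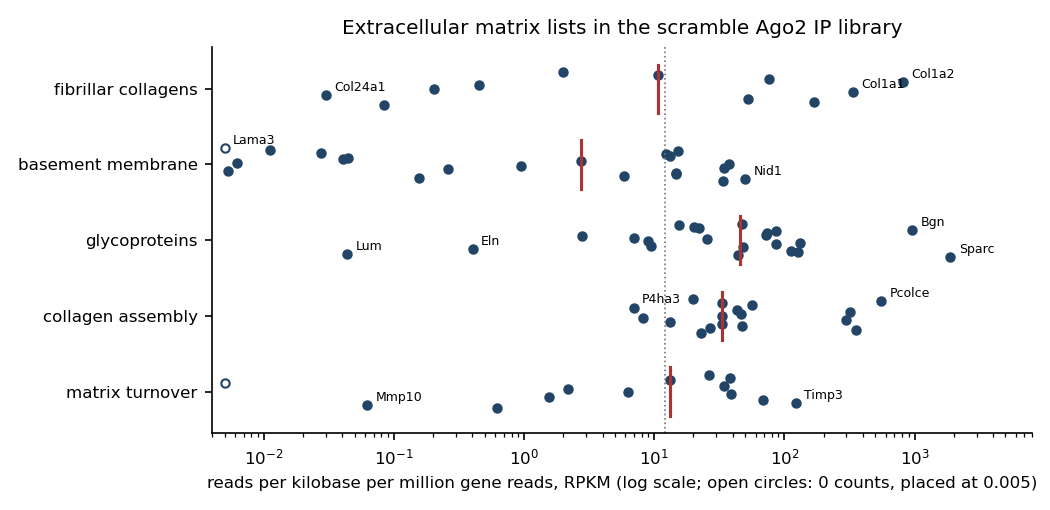
Each filled point is a gene of a matrix list, at its RPKM (log scale), open circles are genes with 0 counts placed at 0.005, red bars are list medians and the dotted line is the median of all genes at 1 CPM or more. The glycoprotein and collagen assembly medians, 45.7 and 33.3 RPKM, lie well to the right of the line. The turnover median, 13.2 RPKM, is close to it on the right and the fibrillar collagen median, 10.7 RPKM, on the left. The basement membrane median, 2.72 RPKM, lies farthest to its left.

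Some collagen mRNAs carry the site that pairs with the miR-29 seed. The 7mer-m8 match to miR-29, TGGTGCT, was found in the longest annotated 3′UTR of 9 of the 11 fibrillar collagens, 8 of 21 basement membrane genes and 5 of 22 glycoproteins, beside 16.4% of all genes at 1 CPM or more. The members were chosen with these genes known, so the counts are a description. The 3 sites shown here belong to collagens of the top 300 that have 1 match each. The capitals mark the match, read from the sense strand of the annotated transcript.
Col1a1: gtgggaaggaatttcTGGTGCTa
Col3a1: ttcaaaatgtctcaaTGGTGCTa
Col5a2: cttttcttttaatgaTGGTGCTa
In GRCm38 these matches lie in the 3′UTR exons at chr11:94952538-94952544, chr1:45348982-45348988 and chr1:45374966-45374972. In all 3 the match is followed by A, which makes it an 8mer. Col1a2, the fibrillar collagen with the most reads, had no such match in its annotated 3′UTR of 882 bases. Members with a match ran from Col24a1 with 4 reads to Col1a1 with 37188, and the 2 without one were Col11a2 with 23 reads and Col1a2 with 81419.

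Housekeeping genes ranged from the top of the profile to its floor. The 6 elongation factors held 1.69% of the reads and the 35 cytoskeleton genes 2.63%. The 21 chaperones held 1.45%, and all of them were at 10 CPM or more. In the list of 18 reference genes, 16 stood at 10 CPM or more and 2 were under 1 CPM.

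The CCT complex, which folds actin and tubulin, was recovered whole. Its 8 subunits spanned 284 to 2173 CPM, or 144 to 889 RPKM, and 6 were among the top 300. Tcp1 was the highest and Cct3 the lowest. The mitochondrial chaperone Hspa9 had 699 CPM and the endoplasmic reticulum isomerase Pdia3 866 CPM. The 4 lowest chaperones were Hspa5 (128 CPM), Pdia4 (95.2 CPM), Hsp90aa1 (69 CPM) and Hspe1 (31.5 CPM). Of the cytoskeleton genes, Tpm4, Tpm1, Flna and Myh9 stood between 1273 and 1534 CPM, and the 4 lowest were Myl9 (30.9 CPM), Tuba1c (26.7 CPM), Actg1 (14.3 CPM) and Tpm3 (2.56 CPM).

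Gapdh and Ppia, which are among the most abundant mRNAs of most cells and serve as references in PCR, had 11 and 8 reads (0.588 and 0.427 CPM). In the same list Actb had 67825 reads and Tubb5 31663, and Hprt and Tbp had 2737 and 877. Actg1, the other cytoplasmic actin, had 268 reads. In the glycolysis list Gapdh and Eno1 (15 reads) stood beside Ldha (1363 CPM), Pkm (956 CPM) and Aldoa (944 CPM), enzymes of the same pathway. Aldoc, the brain form of aldolase, had 4 reads.

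Reads that align to more than 1 place were left out of the gene rows, so the similarity of each gene to other genes was measured. It is given as the share of 50-base windows of its transcript that occur unchanged in a transcript of another GENCODE M21 gene, pseudogenes included. Gapdh shared 82.5% of its windows, Eno1 72.2%, Tpm3 62.4%, Actg1 56.7% and Ppia 27.4%. Actb shared 14.2%, and Tubb5, Hprt and Tbp under 1%. High levels were also found at high shares, as Eef1a1 shared 59.2% and Eef1g 64.3% and both were among the top 300. Similar sequence with mismatches, or outside the annotated transcripts, is not in these shares. In the list of 18 reference genes, the 9 that shared under 10% ran from 41.8 to 1692 CPM, and the 9 others from 0.427 to 6563 CPM. How much of a low value comes from left-out reads was not tested.

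The cytosolic ribosomal proteins spread from the top ranks to 0. Their 86 rows held 1.05% of the reads with a median of 13.8 RPKM, and 70 stood at 1 CPM or more. Among the highest were Rpl8 (1667 CPM, 6.49% of its windows shared), Rpl4 (1608 CPM), Rps9 (792 CPM), Rps3 (628 CPM) and Rpl15 (405 CPM). Rps23 and Rpl26, single subunits of the same ribosome, had 0 reads, as did Rpl3l, a muscle form, and Rpl24 had 4. The 10 members that shared under 10% had a median of 28.5 RPKM, the 44 that shared 10% to 50% one of 15.4 RPKM, and the 32 that shared 50% or more one of 7.09 RPKM. The 3 members of the first class under 100 reads were the tissue-restricted forms Rpl3l, Rpl10l and Rpl39l. Across the 86 members, the shared windows and RPKM had a Spearman rho of -0.176, and the shared windows and CPM one of -0.265, so the ordering was loose. The 76 mitochondrial ribosomal proteins were more even, with a median of 13.4 RPKM and 75 at 1 CPM or more, from Mrpl44 at 313 CPM down to Mrpl23 with 2 reads.

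**Figure D4:**
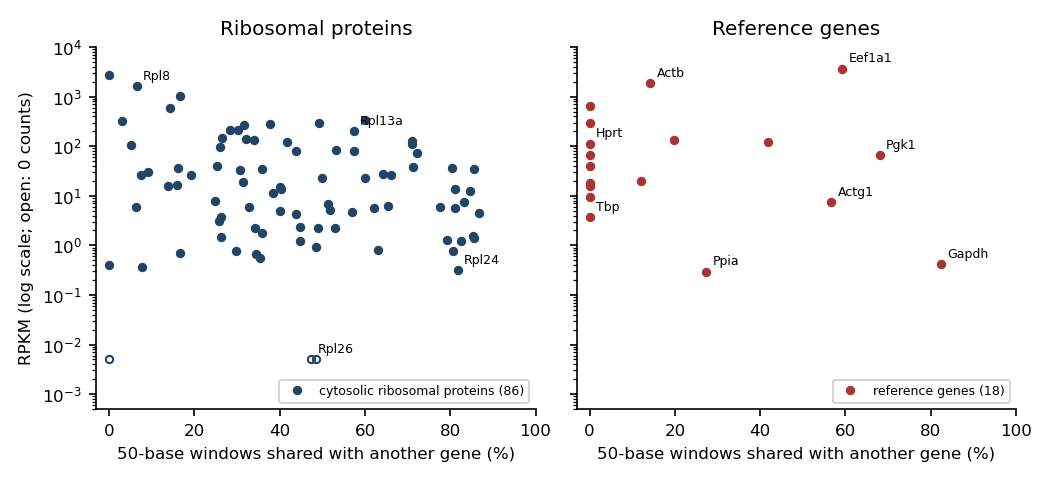
Each point is a gene, at the share of its 50-base windows found in another gene (%) and its RPKM (log scale), for 86 cytosolic ribosomal proteins on the left and 18 reference genes on the right, with open circles for 0 counts placed at 0.005. Highest levels on the left lie at low shares, as for Rpl8 with 1634 RPKM at 6.49%, while Eef1a1 on the right combines 59.2% with 3658 RPKM.

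The listed long non-coding RNAs had a median of 13.1 CPM and 5.79 RPKM, and none reached the top 300. The medians over the genes at 1 CPM or more were higher, 37 CPM and 12 RPKM. Of the 35 listed with a row, 27 stood at 1 CPM or more, and they held 0.204% of the reads. Rian, from the imprinted Dlk1-Dio3 region, led with 7114 reads (380 CPM), and its neighbour Meg3 had 107 CPM. Norad, a cytoplasmic RNA that binds Pumilio proteins, had 332 CPM, with 39.5% of its windows shared. Snhg1, a host of small nucleolar RNAs, had 223 CPM. The nuclear RNAs Malat1 and Neat1, known from speckles and paraspeckles, had 218 and 118 CPM, and Tug1 had 155 CPM. Per kilobase these were lower, with 31.3 RPKM for Malat1 and 5.69 RPKM for Neat1. The lowest were Xist with 1 read and Miat, Snhg11 and Tsix with 0 reads.

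Rows of small RNAs were almost empty. Of 614 miRNA gene rows 571 had 0 reads, beside 33.1% of all rows, and 1060 of the 1252 reads of the class were on Mir703. The next were Mir682 (58 reads), Mir3064 (31), Mir196a-1 (20) and Mir568 (16). Of the 40 rows with a read and a hairpin in RefSeq, 18 overlapped a protein-coding gene that had a row of its own. Mir3064 lies within Ddx5, which had 9919 reads. The 45 Snora rows held 78 reads and the 67 Snord rows 170, led by Snord22 (45 reads) and Snord47 (33). Rmrp and Rpph1, the RNAs of the RNase MRP and RNase P enzymes, had 2 and 3 reads. The 66 histone cluster rows, whose mRNAs mostly lack a poly(A) tail, held 688 reads, and the highest, Hist3h2a, had 102.

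The genes of the miRNA pathway itself were all recovered. Tnrc6a, the scaffold that links Ago proteins to mRNA decay, was the highest with 16515 reads (882 CPM) and was the only member in the top 300. Its relatives Tnrc6b and Tnrc6c had 388 and 164 CPM. Of the Argonaute mRNAs, Ago1 had 281 CPM, Ago2 178 CPM, Ago4 35.2 CPM and Ago3 16.7 CPM, and per kilobase the first 2 had 38.9 and 12.9 RPKM. Dicer1 and Drosha, which cut miRNA precursors, had 382 and 196 CPM, and Dgcr8, the partner of Drosha, 36.4 CPM. These are mRNA levels and say nothing of the amount of protein.

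Many textbook let-7 targets were among the higher genes. Of 16 listed, 13 stood at 10 CPM or more, beside 40.2% of all rows, and 3 in the top 300, beside 1.33%. Their median was 49.2 RPKM, against 12 RPKM over the genes at 1 CPM or more. Ccnd1, which drives entry into the cell cycle, had 1430 CPM, the RNA-binding protein gene Igf2bp2 644 CPM and the chromatin gene Hmga2 558 CPM. Nras, Dicer1 and Igf2bp1 followed with 427, 382 and 370 CPM. The embryonic members were the lowest, with 30 reads for Trim71, 19 for Lin28b and 0 for Lin28a. The 7mer-m8 match to let-7, CTACCTC, was present in the longest 3′UTR of 13 of the 16, beside 10.8% of all genes at 1 CPM or more. The list is made of genes known for let-7 sites, so this count was set by its choice and is a description. Ccnd1, Dicer1 and Myc had none in this window. The matches of the highest members that carry one are shown, with capitals marking the match on the sense strand.
Igf2bp2: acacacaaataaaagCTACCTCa
Hmga2 1: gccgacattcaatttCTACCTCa
Hmga2 2: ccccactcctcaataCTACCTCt
Hmga2 3: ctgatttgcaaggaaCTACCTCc
Hmga2 4: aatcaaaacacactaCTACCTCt
The Igf2bp2 match lies at chr16:22059474-22059480 of GRCm38, on the minus strand and in the 3′UTR exon. The 4 Hmga2 matches also lie on the minus strand, at chr10:120364225-120364231, chr10:120362988-120362994, chr10:120362550-120362556 and chr10:120361692-120361698. In Igf2bp2 and the first site of Hmga2 the match is an 8mer. Lin28a, with 0 reads, had 2 matches and Trim71 had 4, so a match alone did not go with a level.

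Across the whole profile, a match to any of the 8 families was about as frequent in the top 300 as elsewhere. Single families differed in both directions. Of the genes of the top 300 with an annotated 3′UTR, all but 1 of them, 184 (61.5%) held a match to at least 1 of the 8 families, beside 61.2% of the 10900 other genes at 1 CPM or more. For let-7 the shares were 8.7% (5.76% to 12.5%) and 10.9%. For miR-29 they were 22.1% (17.5% to 27.2%) and 16.2%, and for miR-21, match ATAAGCT, 11.4% (8% to 15.5%) and 8.03%. For miR-125, match CTCAGGG, the share was lower in the top 300, 11.7% (8.29% to 15.9%) against 16.1%. The matches to miR-15/16 (TGCTGCT), miR-17/20/93 (GCACTTT), miR-26 (TACTTGA) and miR-30 (TGTTTAC) were found in 26.8%, 18.1%, 14% and 18.7% of the top 300, and in 25.6%, 15.3%, 11.8% and 16.8% of the others. With the 8mer in place of the 7mer-m8 the let-7 shares changed order, to 5.02% in the top 300 and 3.89% in the others. In the shortest annotated 3′UTR the miR-29 shares came closer, with 10.7% (7.44% to 14.8%) and 9.18%. The intervals treat genes as independent, which they are not, and no test was made.

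The share with a match rose with the length of the 3′UTR in both sets. In the 5 groups of 3′UTR length, the share with a miR-29 match ran from 2.08% in the shortest to 40.3% in the longest group of the top 300, and from 3.24% to 36.9% in the other genes. The top 300 stood above the other genes in 3 of the 5 groups for miR-29, and below them in 4 of 5 for miR-125 and for let-7. In the longest group the shares for miR-26 were 41.9% and 29.3%, and for miR-21 33.9% and 20.8%. These rest on 62 genes of the top 300 in that group.

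**Figure D5:**
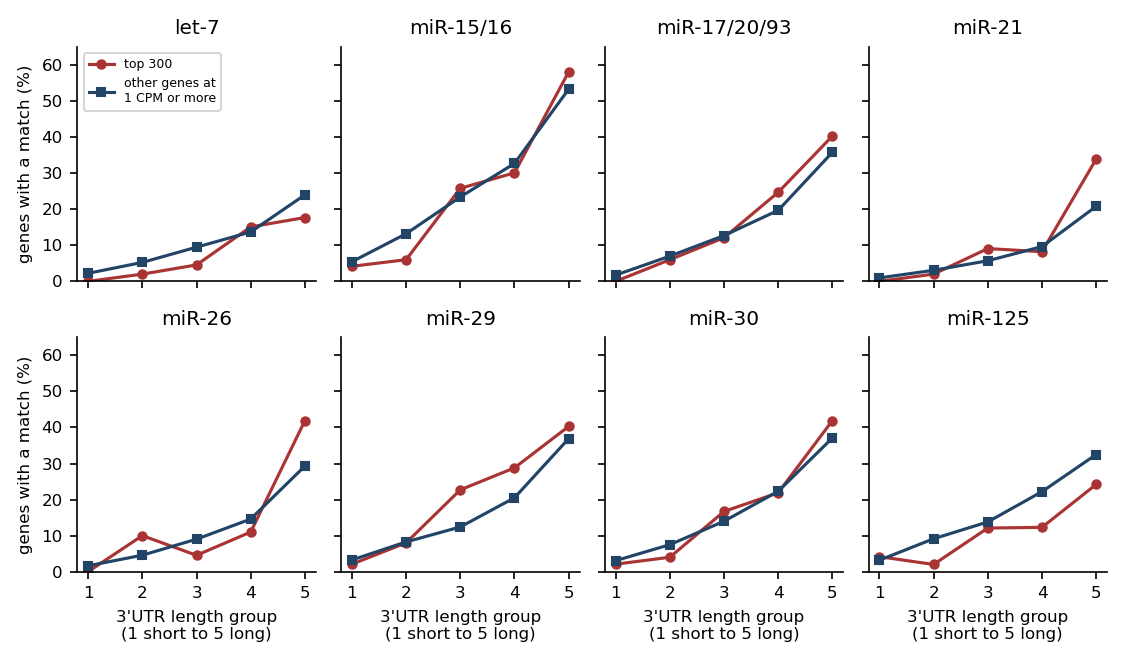
The percentage of genes whose longest 3′UTR holds a 7mer-m8 match is plotted by 3′UTR length group, from short (1) to long (5), for 8 miRNA families, with circles for the top 300 and squares for the other genes at 1 CPM or more. From the shortest to the longest group both lines rise in every panel, for miR-29 from 2.08% to 40.3% in the top 300, with single steps down between neighbouring groups in the top 300 only.

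The experiment was made to find the target genes of miR-471-5p, in a study on how Sertoli cells clear dying germ cells by LC3-associated phagocytosis, and known genes of that process were read in the baseline. The list joins engulfment and autophagy genes with Acadl and Dsc2, which the study also measured. Of its 20 members, 17 stood at 10 CPM or more, beside 40.2% of all rows. Their median was 69.7 CPM over the whole list, and no member was in the top 300. Crk, an adaptor upstream of Rac1, had 320 CPM, the lipid enzyme gene Acadl 309 CPM, Rac1 262 CPM and Atg12, part of the LC3-conjugating complex, 201 CPM. Atg16l1 and Rubcn, which encodes Rubicon, had 115 and 114 CPM. The 4 lowest were Rab7 (16.5 CPM), Elmo1 (7 reads), and the receptor gene Adgrb1 and the desmosomal cadherin Dsc2 with 0 reads. Elmo2, the relative of Elmo1, had 113 CPM.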

How the data were processed

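RNA recovered with an Ago2 antibody from scramble-transfected TM4 cells was analysed from 1 table. Per the labels the cells were taken 48 h after transfection. The authors deposited raw counts of reads per gene symbol, without normalization; the submitters' processing notes name CASAVA 1.8.2, TopHat2 2.0.8b, HTSeq and the mm9 build, with no order or settings, and strandedness is not given in the sources used here. The last 5 rows are summaries and were left out of the total. The scramble table was the only one used. Symbols were matched to GENCODE M21 (GRCm38) by symbol (20284 rows) or RefSeq synonym (1886), and 439 had no match. Lengths, 3′UTRs and 50-base windows came from that annotation, and no coordinate of the count table was used. Poisson intervals (CPM) and Clopper-Pearson intervals (shares) were computed at 95% with scipy 1.17.1 on Python 3.11.15. With 1 library no test was made. Functions were tested on simulated data.

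Named were the 20 genes with the most reads, the 10 highest per kilobase among genes with at least 100 counts, ranks 299 to 302, all needed members of lists of 13 or fewer, the 6 highest and 4 lowest of longer lists, markers under 3 counts, and the 5 highest miRNA, snoRNA and lncRNA rows. Other genes, such as CCT subunits, housekeeping genes with few reads and targets shown with sites, were chosen after their values were seen. Some genes that this rule names are not reported here. The members and lists were chosen with earlier results of these data known. Alternatives were other denominators, detection levels, lengths, gene sets, 3′UTRs and match types.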

Additional observations from a re-analysis of the deposited data

Results flagged for a closer look

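The row for reads aligned to several places, which entered no level above, held 35.6% of all entries of the table. Whether each alignment of such a read was entered is not given, so this need not be the share of reads. It is a signal outside the gene rows, and it cannot be assigned to genes from the counts.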

How the results depend on the processing

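With 1 library no replicate could be left out, and no scaling between samples applied. No paired analysis was possible because the result comes from no test. With all entries as the denominator, the top 10 genes held 2.79% and the top 300 genes 14.9%. That denominator includes the row for reads aligned to several places, where a read may have more than 1 entry. The top 300 held 26.5% without cytosolic ribosomal proteins, 23.3% without the 10 highest genes and 31% per kilobase. Without genes sharing 20% or more of their windows, an alternative chosen after seeing the data, they held 26.8%. With the shortest 3′UTR the shares with a match in the top 300 and in the other genes were 6.02% and 6.14% for let-7 and 10.7% and 9.18% for miR-29. With the 8mer they were 5.02% and 3.89% for let-7, which turned the order, and 6.02% and 3.42% for miR-29. The order also turned for miR-30 with the shortest 3′UTR (9.36% and 9.77%) and for miR-15/16 with the 8mer (4.68% and 4.78%). For the other 6 families described, 12 of 12 such values of the top 300 lay below the main interval. This fall was largely set by the choice, as every 8mer is also a 7mer-m8 and the shortest 3′UTR is never the longer one. Against the other genes, the 8mer shares were 8.03% and 4.65% for miR-17/20/93, 3.68% and 2.39% for miR-21, and 7.36% and 5.1% for miR-26. They were 10.7% and 8.7% for miR-30, and 3.34% and 5.72% for miR-125. The number of genes holding 50% of reads (963 and 1146), the genes at 1 CPM or more (10127 to 15134 under the other limits) and the overlap per kilobase (171 with the union of exons) stayed within 1.5 times. Among genes at 1 CPM or more, the median percentiles of 5 of 27 lists moved by over 10 points per kilobase: fibrillar collagens, basement membrane and miRNA machinery fell, and both ribosomal lists rose. With all entries as the denominator, 32 of 34 list shares moved, all downward. That change scales every share by the same factor, so the fall was set in advance and the order of the lists stayed. Restricting ribosomal proteins to members sharing under 10% of their windows, also chosen after seeing the data, gave a median of 88.8 CPM in place of 11.2. Per kilobase the change was smaller, with a median of 28.5 RPKM in place of 13.8. Counting error is small for genes above 100 reads, and genes under 3 reads cannot be told from absent ones.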

Other observations

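Other gene families were looked at after the values had been seen, by their symbols, and their counts are read beside the 51.1% of all rows at 1 CPM or more. Of 46 translation initiation factors 44 stood at 1 CPM or more and 6 were among the top 300, led by Eif4b (2743 CPM), Eif4g2 (1773 CPM) and Eif4g1 (636 CPM). Of 43 collagen genes 27 stood at 1 CPM or more. The chains of the microfibrillar type VI collagen were among the higher ones, with 622 CPM for Col6a2, 444 CPM for Col6a1 and 416 CPM for Col6a3. Of 26 integrin subunits 12 stood at 1 CPM or more. Itgb1, the beta chain shared by most matrix receptors, had 1210 CPM and its partners Itga5 and Itga3 had 226 and 138 CPM.

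Of 39 Hox genes, which mark position along the body axis, 29 stood at 1 CPM or more. Hoxc8 had 507 CPM, Hoxa10 217 CPM, Hoxa9 156 CPM and Hoxa11 120 CPM. Of 39 chemokine genes 12 stood at 1 CPM or more, with Cxcl12 (4076 CPM), Ccl2 (541 CPM), Ccl7 (329 CPM) and Cxcl5 (312 CPM) ahead of the rest and 16 at 0. Of 52 keratin genes 40 had 0 reads.

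The Y-linked genes looked at were below the floor. Of these 8, Ddx3y and Eif2s3y had 2 reads each, Usp9y had 1, and Kdm5d, Uty, Zfy1, Zfy2 and Sry had 0. Of the 16 rows on chromosome Y, 0 stood at 1 CPM or more. Xist, the RNA of the inactive X chromosome, had 1 read.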
